A study of Mus musculus with 8 samples.

Results

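Cluster 1 and cluster 6 are sorted stromal populations of mouse bone marrow that lie on opposite sides of a Sca-1 gate, and their RNA-seq libraries are compared here gene by gene. Sca-1 is a surface protein encoded by Ly6a that is used to enrich stem and progenitor cells. Of 49315 genes in the deposited count files, the 10430 with more than 2 RPKM and at least 50 counts in at least 1 of these 2 libraries were described. RPKM is used throughout for counts per kilobase of gene, divided by the library total in units of 1e+06 after TMM scaling of the totals.

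The study sorted 7 subpopulations of bone marrow stromal cells and sequenced 1 library of each, beside 1 library of input marrow, so that the series holds 8 libraries. All are labelled as from wild type C57BL/6J mice 6 weeks after birth, the labels name no treatment or transgene, and the study's methods name C57BL/6JJcl mice and mice with a CAG-EGFP transgene, both in an age range that starts at 6 weeks, without tying either to these libraries. The labels' extraction text describes crushed marrow and the methods describe sorted cells, so that the population behind each library rests on its title and on the study's sort plots, from which the gates given here were read. Both populations were depleted of cells with the endothelial protein CD31, the leukocyte protein CD45 and the erythroid protein Ter119. Cluster 1 was then taken as CD24-negative, CD39-positive and Sca-1-positive, and cluster 6 as CD24-positive, CD39-negative and Sca-1-negative. The study had defined its 7 clusters by single-cell RNA-seq of cells positive for Sca-1 and PDGFR-alpha. Its methods also list an antibody to PDGFR-alpha for sorting. How a Sca-1-negative gate relates to that Sca-1-positive parent population is not explained in the sources used here. The number of mice behind each library is not given in the sources used here. The library totals were 24205863 counts for cluster 1 and 31669132 for cluster 6, and the other 5 sorted libraries ranged from 12833648 to 33238133.

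With 1 library a population, no difference below has a replicate check and no p-value is given. Differences are stated as the log2 ratio of RPKM + 1, cluster 1 over cluster 6, so a positive value is higher in cluster 1. Folds are ratios of RPKM with a 95% exact binomial interval, which covers counting error only, because reads without molecular identifiers are not independent molecules. In bulk RNA, fewer cells of a type and less RNA per cell cannot be told apart.

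Stromal cells of the marrow and bone surface include fibroblast-like cells around vessels and in connective tissue, reticular cells that support blood formation, and cells committed to bone or cartilage. Osteoblasts lay down a collagen I matrix and mineralise it, with the transcription factors Runx2 and Sp7 upstream of matrix genes such as Ibsp and Bglap. Chondrocytes depend on Sox9 and build a matrix of collagens II, IX and XI with aggrecan. Sca-1 in stromal cells is known from adventitial and other uncommitted fibroblasts, and is low in mature osteoblasts.

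Promoter sequences are shown for genes that lay at the opposite ends of the comparison, from RefSeq, build GRCm38.p6, as 250 bases before to 50 bases after the transcription start, 5′ to 3′ on the gene's strand. Bglap encodes the bone matrix protein osteocalcin (chr3:88384417-88384716, minus strand), Ibsp encodes bone sialoprotein (chr5:104299037-104299336, plus strand), and Abca8a encodes an ABC transporter (chr11:110095888-110096187, minus strand). Capitals mark matches on either strand to TGTGGT (the RUNX core), ACAATG (a SOX core) or TATAAA (the TATA box).
Bglap: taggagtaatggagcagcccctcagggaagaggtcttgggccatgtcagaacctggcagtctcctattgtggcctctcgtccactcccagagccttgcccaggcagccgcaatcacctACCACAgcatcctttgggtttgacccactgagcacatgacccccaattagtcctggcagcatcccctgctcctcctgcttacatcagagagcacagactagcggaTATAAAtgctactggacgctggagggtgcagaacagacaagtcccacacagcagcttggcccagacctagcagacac
Ibsp: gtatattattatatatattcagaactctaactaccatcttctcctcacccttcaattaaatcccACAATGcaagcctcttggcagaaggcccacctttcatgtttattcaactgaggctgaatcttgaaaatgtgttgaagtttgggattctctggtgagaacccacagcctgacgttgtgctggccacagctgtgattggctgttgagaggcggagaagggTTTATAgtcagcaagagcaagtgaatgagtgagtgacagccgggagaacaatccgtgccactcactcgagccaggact
Abca8a: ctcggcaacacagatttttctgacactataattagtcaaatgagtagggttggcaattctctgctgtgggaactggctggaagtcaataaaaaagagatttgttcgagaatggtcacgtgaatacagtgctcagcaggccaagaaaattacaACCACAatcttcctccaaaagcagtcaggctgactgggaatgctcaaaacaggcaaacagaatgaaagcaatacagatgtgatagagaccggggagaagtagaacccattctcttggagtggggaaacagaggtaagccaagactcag

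The Bglap window held the RUNX core 132 bases upstream of the start and a TATA box 27 bases upstream. The Ibsp window held the SOX core 186 bases upstream and the TATA letters on the opposite strand 28 bases upstream. It held no match to the RUNX core. The Abca8a window also held the RUNX core, 98 bases upstream, so these letters were found on both sides of the comparison. Over all 32851 promoter windows of the table, 16.8% held the RUNX core, 12.6% the SOX core and 13.6% the TATA box. Among windows of genes more than 4-fold higher in cluster 6, 16.0% of 281 held the RUNX core, 8.54% the SOX core and 12.5% the TATA box. Among those of genes more than 4-fold higher in cluster 1, 11.3% of 238 held the RUNX core, 9.66% the SOX core and 12.6% the TATA box. The windows of all genes described stood at 12.3%, 6.94% and 7.47%, in the same order. A match is a description of letters, not a binding site.

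The genes that mark the comparison followed the gate for Sca-1 and separated the populations in both directions. Ly6a (chr15:74994877-74998031) stood at 492 RPKM in cluster 1 and 5.96 in cluster 6, which is 82.5-fold (71.5 to 95.7). Cluster 6 was the lowest of the 7 sorted libraries for Ly6a, whereas cluster 1 was the second after cluster 3, at 917 RPKM, and the others lay between 73.2 and 421. Abca8a (chr11:110025634-110095978) was 30.9 RPKM in cluster 1 and 0.717 in cluster 6, 43.1-fold apart (35.9 to 52.1), and cluster 1 was the highest of the 7.

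Alpl (chr4:137741733-137796384), the tissue-nonspecific alkaline phosphatase that mineralising cells carry, was 22.1 RPKM in cluster 1 and 484 in cluster 6, 21.9-fold higher in cluster 6 (21.0 to 22.8). Ibsp was 164 RPKM in cluster 1 and 3822 in cluster 6, 23.3-fold higher in cluster 6 (22.8 to 23.8). For both genes cluster 6 was the highest and cluster 1 the lowest of the 7 sorted libraries, and the others spanned 61.8 to 115 RPKM for Alpl and 273 to 668 for Ibsp.

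The transcripts of the other proteins that gate or deplete these populations differed less. Cd24a, which encodes CD24, was 46.4 RPKM in cluster 1 and 164 in cluster 6, 3.54-fold higher in the CD24-positive population (3.40 to 3.68). Entpd1, which encodes CD39, was 7.13 RPKM in the CD39-positive cluster 1 and 5.41 in the CD39-negative cluster 6, 1.32-fold apart (1.20 to 1.45). Its level was therefore within 2-fold although the protein was used to part the populations. Of the depleted proteins, Pecam1 for CD31 was 2.27 RPKM in cluster 1 and 1.57 in cluster 6, and Ptprc for CD45 was 2.43 and 4.81. Genes for other surface markers of the study went both ways. Ly6c1, for Ly-6C, was 176 RPKM in cluster 1 and 7.71 in cluster 6, 22.8-fold apart (20.5 to 25.5). Pdgfra and Icam1 were 2.63-fold and 2.62-fold higher in cluster 1, and Ly6c2 and Il1r2 were 2.10-fold and 1.92-fold higher in cluster 6.

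Across the 10430 genes described, 1065 were more than 2-fold higher in cluster 1 (10.2%) and 1150 more than 2-fold higher in cluster 6 (11.0%). More than 4-fold, 301 genes were higher in cluster 1 (2.89%) and 317 in cluster 6 (3.04%). The remaining 8215 genes were within 2-fold, and the median log2 ratio was -0.08. Among the 21 pairs of sorted libraries, this pair had the third highest number past 2-fold, 2215, after cluster 2 with cluster 7 at 2636 and cluster 5 with cluster 6 at 2254. Tfpi entered the set at 2.0001 RPKM in the higher library, whereas Lrrc49 fell short at 1.9993. At the 2-fold line, Hscb lay just above a log2 ratio of 1 and Tbc1d12, at 0.9989, just below.

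The split between the directions depended on the scaling of the libraries. Of the genes past 2-fold, 48.1% were higher in cluster 1 with TMM scaling and 77.4% with total counts, under which the median log2 ratio of the genes described was 0.40, a shift of 0.48. The transcripts of 4 matrix genes differed in their share of the total. Col1a1, Col1a2, Col2a1 and Sparc together took 28.9% of all counts in cluster 6 and 7.79% in cluster 1 (Wilson 95% intervals, 28.8 to 28.9 and 7.78 to 7.80). Under total counts, 2113 of 10539 genes described were more than 2-fold higher in cluster 1 and 617 in cluster 6. These numbers, and 10.2% and 11.0% with TMM scaling, are the background for every count of a gene list.

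**Figure D1:**
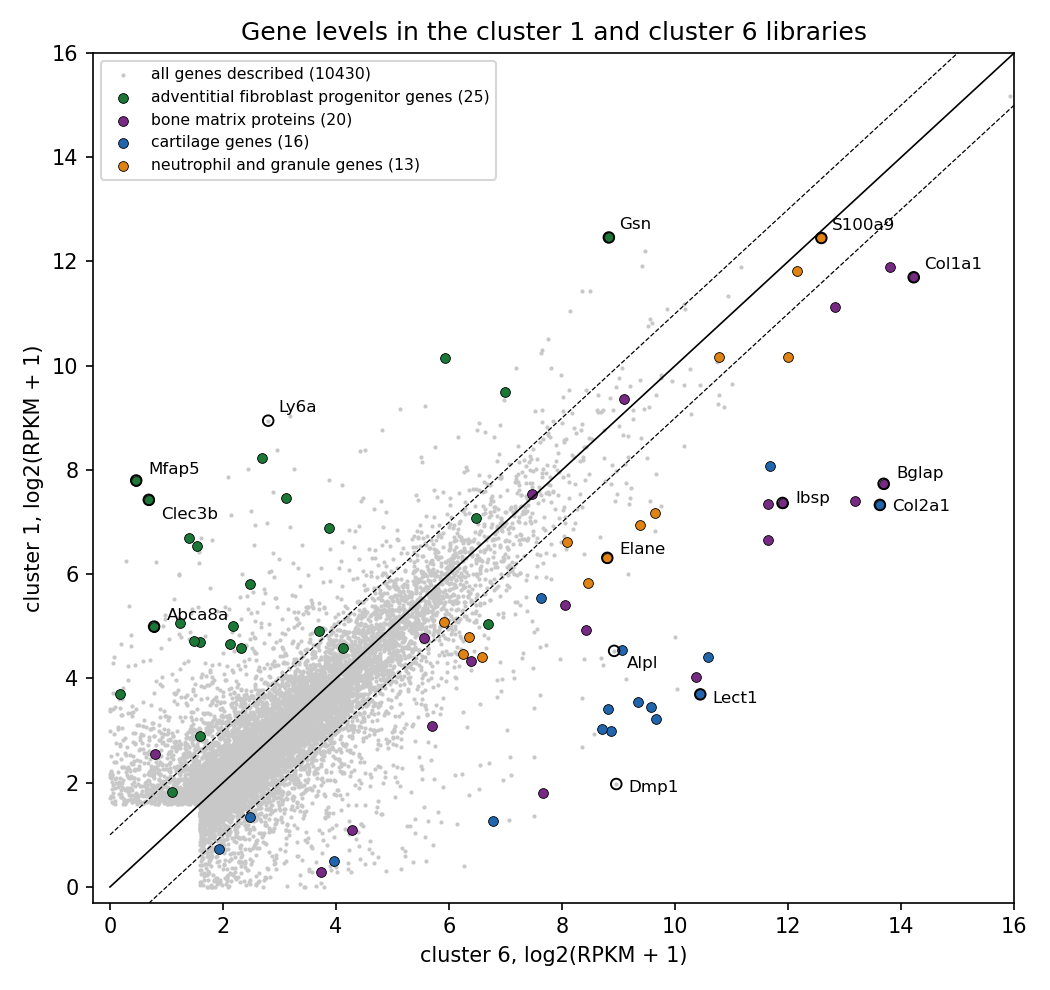
Level of each of the 10430 genes described in cluster 6 (horizontal axis) and cluster 1 (vertical axis), both as log2(RPKM + 1), with 1 library each. The solid line marks equal levels, the dashed lines mark 2-fold, and coloured points are the members of 4 gene lists, all cartilage genes and most bone matrix genes lying below the line of equal levels and 24 of 25 adventitial fibroblast progenitor genes above it.

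Of the 12 genes with the largest ratios toward cluster 6, 6 are in the cartilage list and 2 in the bone matrix list. By the rule for named genes, the 12 largest were Dmp1, Lect1, Matn3, Col11a2, Col2a1, Cytl1, Col9a3, Panx3, Col9a1, Bglap, Hapln1 and R3hdml, with log2 ratios from -6.98 to -5.87. Dmp1 (chr5:104202613-104214102), a matrix phosphoprotein of osteocytes and late osteoblasts, was 2.93 RPKM in cluster 1 and 497 in cluster 6, 169-fold higher in cluster 6 (149 to 193). Cluster 3 was next at 200 RPKM, and the input marrow held 0.862. Panx3, a channel protein of osteoblasts and prehypertrophic chondrocytes, was 1.57 RPKM in cluster 1 and 181 in cluster 6.

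Col2a1 (chr15:97975602-98004695), the chain of cartilage collagen II, was 160 RPKM in cluster 1 and 12621 in cluster 6, where it alone received 2003208 counts. Its fold was 78.9 (78.0 to 79.9). Cluster 2, at 8042 RPKM, and cluster 4, at 2976, were also high, and the remaining sorted libraries lay between 132 and 189. Cluster 1 was therefore at the level of the low libraries and not below them.

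All 16 cartilage genes found were described, and all 16 were more than 2-fold higher in cluster 6, against 11.0% of all genes described. Their median log2 ratio was -5.60, and 14 passed 4-fold. With total counts 14 of the 16 were past 2-fold, Sox5 and Sox6 falling short. Lect1, which encodes chondromodulin, an inhibitor of vessel growth in cartilage, was 11.95 RPKM in cluster 1 and 1393 in cluster 6, and Matn3, a matrilin of the cartilage matrix, was 8.31 and 811. Acan, which encodes aggrecan, was 7.12 RPKM in cluster 1 and 417 in cluster 6. Col10a1, the collagen of hypertrophic chondrocytes, was 9.65 RPKM in cluster 1 and 446 in cluster 6, below the 561 of cluster 2. The summed level of the list was 584 RPKM in cluster 1, 16272 in cluster 2 and 23226 in cluster 6. The transcription factors differed less: Sox9 had a log2 ratio of -2.08, Sox6 of -1.20 and Sox5 of -1.14.

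Of 20 bone matrix genes, all described, 16 were more than 2-fold higher in cluster 6 and 1 in cluster 1, with a median log2 ratio of -2.92. Bglap was 212 RPKM in cluster 1 and 13209 in cluster 6, 62.3-fold higher in cluster 6 (60.3 to 64.4). Cluster 3, at 13802 RPKM, was as high, and cluster 5 stood at 6327, so that the low side of this gene was shared by cluster 1, at 212, cluster 4, at 186, and cluster 7, at 247. Bglap and its near copy Bglap2 share sequence, and the counting could split their reads, so the values of each are uncertain.

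Ifitm5, an osteoblast membrane protein mutated in a brittle bone disease, had a log2 ratio of -5.86, and Chad, which encodes chondroadherin, of -4.99. Col11a2, counted with the bone matrix list here and also a cartilage collagen, had -6.34. The collagen I genes differed less than these on the ratio and carried more of the counts: Col1a1 was 3320 RPKM in cluster 1 and 19100 in cluster 6, 5.75-fold apart (5.74 to 5.77). The single member past 2-fold toward cluster 1 was Ostn, which encodes osteocrin, at 4.87 RPKM in cluster 1 and 0.744 in cluster 6. Mgp, the matrix Gla protein that inhibits calcification, stood at 661 and 547 RPKM.

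Of 13 osteogenic transcription factors described, 8 were more than 2-fold higher in cluster 6 and 2 in cluster 1. Total counts gave 7 and 4. Sp7, which encodes osterix, was 1.90 RPKM in cluster 1 and 46.2 in cluster 6, 24.4-fold apart (20.8 to 28.7). Runx2 was 1.71 and 9.86 RPKM, a difference of 5.77-fold (5.21 to 6.41). Vdr, the vitamin D receptor, had a log2 ratio of -2.87. Msx1, a homeobox gene, stood on the other side at 23.5 RPKM in cluster 1 and 4.31 in cluster 6, and Twist2, an inhibitor of osteoblast maturation, at 2.15 and 0.0596.

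Genes of mineralisation gave 7 of 11 more than 2-fold higher in cluster 6 and none more than 2-fold higher in cluster 1, where Mmp13, Mmp14 and Slc20a2 were higher by less. With total counts these were 6 and 2. The largest toward cluster 6 was Smpd3, a sphingomyelinase required for skeletal mineralisation, with a log2 ratio of -5.62, followed by Alpl, with -4.39, and Phex, the endopeptidase lost in X-linked hypophosphataemia, with -3.47. Of 8 osteocyte genes described, 5 were more than 2-fold higher in cluster 6 and 2 in cluster 1, the latter being Pdpn and Cd44, surface proteins also found on many fibroblasts. Total counts gave 4 and 3. Sost, the secreted Wnt inhibitor of mature osteocytes, was not among the genes described, with 0 RPKM in cluster 1 and 0.275 in cluster 6. The receptor for parathyroid hormone, Pth1r, was 18.2 RPKM in cluster 1 and 421 in cluster 6.

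Genes for collagen folding, crosslinking and secretion lay mostly toward cluster 6, with 14 of 23 past 2-fold there, 2 past it in cluster 1 and a median log2 ratio of -1.10. Plod2, a lysyl hydroxylase, was 20.1 RPKM in cluster 1 and 155 in cluster 6, and Serpinh1, the collagen chaperone, was 590 and 1873. Both exceptions, Loxl1 and P4ha3, had log2 ratios of 2.75 and 2.46. With total counts 7 of the 23 were past 2-fold toward cluster 6.

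**Figure D2:**
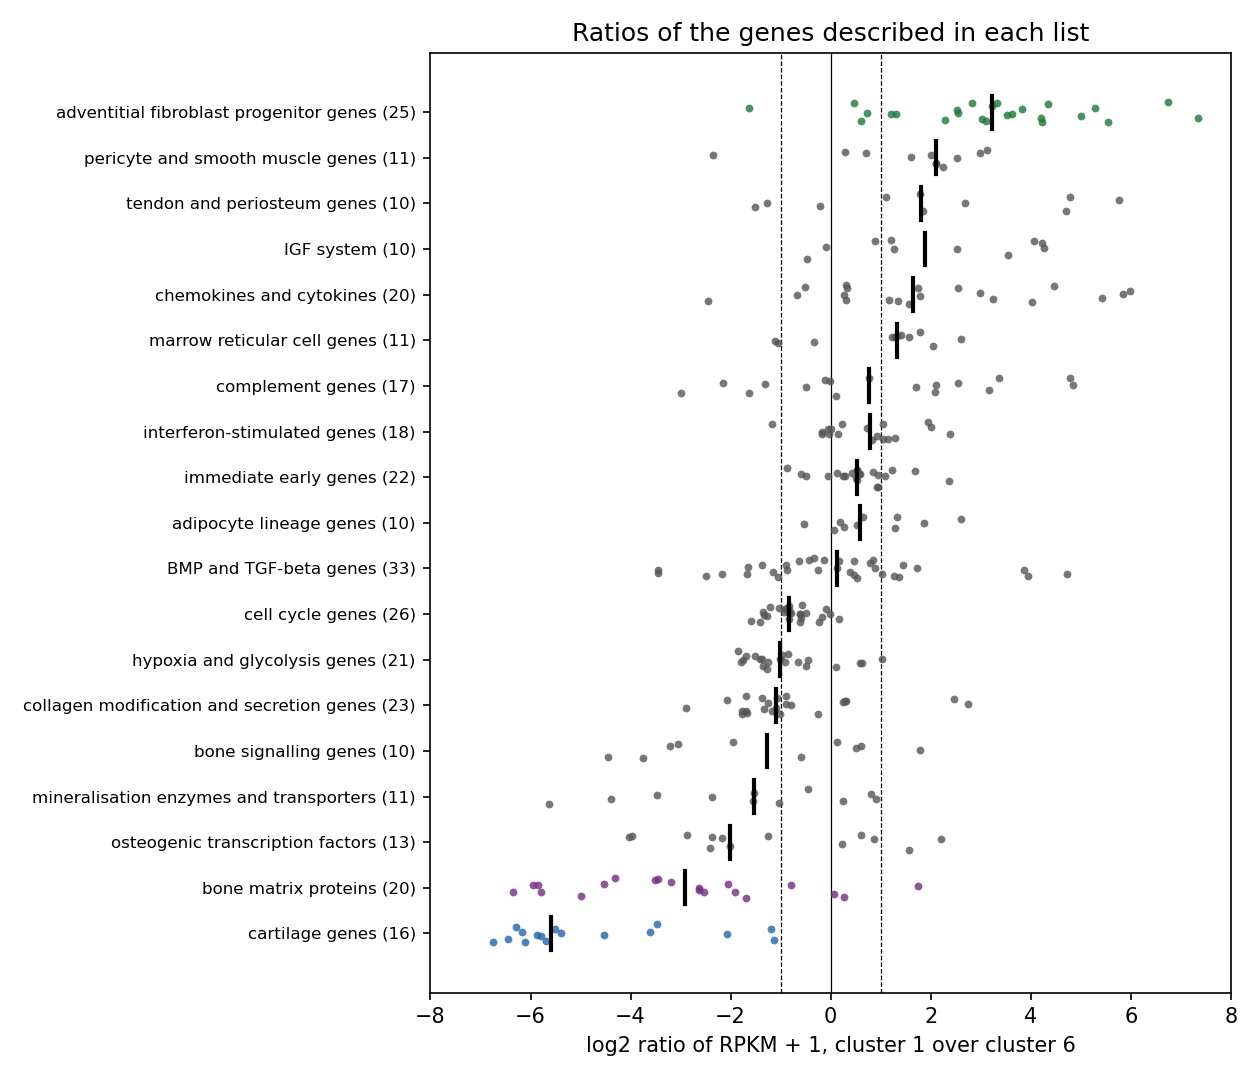
Log2 ratio of RPKM + 1, cluster 1 over cluster 6, for each gene described in 19 lists, 1 point a gene, with the number of genes in parentheses. Thick bars are list medians and dashed lines mark 2-fold; the medians run from -5.60 for cartilage genes to 3.22 for adventitial fibroblast progenitor genes.

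The 12 genes with the largest ratios toward cluster 1 included 4 of the adventitial fibroblast progenitor list, Mfap5, Clec3b, Dpt and Cd34, and the chemokines Ccl11, Ccl7 and Ccl2. In order they were Mfap5, Clec3b, Ly6a, Ccl11, Ccl7, Kera, Nov, Dpt, Cygb, Ccl2, Sfrp2 and Cd34, with log2 ratios from 7.33 to 5.29. Mfap5 (chr6:122505845-122529290), a protein of elastic microfibrils, was 222 RPKM in cluster 1 and 0.379 in cluster 6, where it had 36 counts, a difference of 584-fold (422 to 834). Clec3b, which encodes tetranectin, was 171 and 0.610 RPKM, 281-fold apart (173 to 491). Cluster 6 was the lowest of the 7 sorted libraries for all 12 genes, and cluster 1 was the highest for 6 of them, Mfap5, Ccl11, Kera, Nov, Dpt and Cd34.

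Of 25 adventitial fibroblast progenitor genes, all described, 21 were more than 2-fold higher in cluster 1, against 10.2% of all genes described, and 1 was higher in cluster 6. The median log2 ratio was 3.22. Cd34, a surface sialomucin, was 102 RPKM in cluster 1 and 1.64 in cluster 6, and Dpt, the matrix protein dermatopontin, was 299 and 5.42. Of the other defining members, Pi16 was 25.02 RPKM in cluster 1 and 2.02 in cluster 6, and Dpp4 was 6.42 and 2.02. Thy1, which encodes CD90, was 12.004 and 0.126 RPKM. The exception was Pcolce2, an enhancer of procollagen processing, at 32.1 RPKM in cluster 1 and 102 in cluster 6. Gsn, which encodes the actin-severing protein gelsolin, was the most abundant of the list in both libraries, at 5636 and 453 RPKM. The summed level of the list was 9164 RPKM in cluster 1 and 912 in cluster 6. Clusters 3, 4 and 7 stood at 9156, 10612 and 7822 RPKM, and clusters 2 and 5 at 1334 and 1823. The high side of the list was therefore shared by clusters 1, 3, 4 and 7.

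Chemokines and cytokines were largely on the same side, with 13 of 20 described more than 2-fold higher in cluster 1 and 1 in cluster 6. Ccl11, or eotaxin, was 75.6 RPKM in cluster 1 and 0.210 in cluster 6, from 2372 and 6 counts. Ccl7 was 521 and 8.12 RPKM, and Ccl2, the monocyte attractant, was 332 and 6.78. Cluster 3 exceeded cluster 1 for both of the latter, at 1075 RPKM for Ccl7 and 1244 for Ccl2. Il11 was the gene on the other side, at 3.48 RPKM in cluster 1 and 23.4 in cluster 6. Of the immediate early genes, which respond within minutes to handling and other stimuli, 4 of 22 were more than 2-fold higher in cluster 1 with TMM scaling and 14 with total counts, beside 1065 of 10430 and 2113 of 10539 among all genes described. The part of handling in the chemokine levels was not tested.

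The insulin-like growth factor system gave 7 of 10 genes more than 2-fold higher in cluster 1 and none in cluster 6. The ligand Igf1 was 30.9 RPKM in cluster 1 and 0.912 in cluster 6, 33.9-fold apart (29.8 to 38.7). Of the binding proteins, Igfbp2 had a log2 ratio of 4.26, Igfbp6 of 4.23 and Igfbp3 of 3.54. Igfbp7 lay within 2-fold, at 997 RPKM in cluster 1 and 536 in cluster 6.

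Of 10 tendon and periosteum genes, 7 were more than 2-fold higher in cluster 1 and 2 in cluster 6. Total counts gave 7 and 0. The 2 were Fmod, the collagen-binding proteoglycan fibromodulin, at 613 and 1740 RPKM, and the collagen Col12a1, at 15.01 and 37.9. The summed level of the list was 1624 RPKM in cluster 1 and 1920 in cluster 6, with Fmod the most abundant in both. Kera, which encodes keratocan, was 232 RPKM in cluster 1 and 3.28 in cluster 6, Tnmd, which encodes the tendon membrane protein tenomodulin, was 191 and 6.399, and the collagen Col14a1 was 63.1 and 1.33. Of 11 pericyte and smooth muscle genes, 8 were more than 2-fold higher in cluster 1 and 1 in cluster 6, among the former Myl9 with a log2 ratio of 3.13 and Acta2 with 2.99. The exception, Cspg4, which encodes the proteoglycan NG2, was 9.27 RPKM in cluster 1 and 51.5 in cluster 6.

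Genes of marrow reticular cells gave 8 of 11 more than 2-fold higher in cluster 1 and 2 in cluster 6, the latter 0 by total counts. Cxcl12, the chemokine that retains blood stem cells in marrow, was 27.9 RPKM in cluster 1 and 6.04 in cluster 6, below the 136 of cluster 4. Kitl was 4.47 and 1.17 RPKM, and Vcam1 11.8 and 3.82. Lepr, the leptin receptor, was 2.92 and 3.92 RPKM, with its log2 ratio of -0.32 within 2-fold. Lpl had the largest ratio of this list, 2.60, and Foxc1 and Hp lay past 2-fold on the side of cluster 6. With total counts neither did.

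The small leucine-rich proteoglycans, which bind collagen fibrils, divided between the populations, with 4 of 11 more than 2-fold higher in each and a median log2 ratio of 0.00. With total counts 5 lay past 2-fold toward cluster 1 and 2 toward cluster 6, with a median of 0.52. Kera, at 5.77, Aspn, at 3.61, and Podn, at 3.39, were the largest toward cluster 1, and Epyc, at -4.91, and Omd, at -3.50, toward cluster 6. Lum was equal, at 867 RPKM in cluster 1 and 865 in cluster 6. Dcn, or decorin, was the most abundant in both, at 3790 and 2293 RPKM.

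Of 15 genes described among Wnt antagonists and targets, 7 were more than 2-fold higher in cluster 1 and 8 in cluster 6, the latter 6 by total counts. Sfrp2 was 104 RPKM in cluster 1 and 1.69 in cluster 6, and Sfrp4 was 328 and 20.6. In the other direction, Frzb was 1.24 and 37.0 RPKM, and Wif1, the Wnt inhibitory factor, was 19.7 and 333. Sfrp5 had no count in cluster 1 and 493 in cluster 6. Set against a floor of 3 counts in cluster 1, this was 180-fold higher in cluster 6. The two-sided exact interval of its fold began at 146, which is the lower bound. Dkk1 had 1 count in cluster 1 against 502 in cluster 6, which gives 551-fold with a wide interval, 98.4 to 21792. Of the Wnt ligands, 7 of 19 were described. Wnt2 was 6.62 RPKM in cluster 1 and 0.0503 in cluster 6, and Wnt5b was 2.31 and 32.1.

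BMP and TGF-beta genes gave 8 of 33 more than 2-fold higher in cluster 1, 9 in cluster 6 and a median log2 ratio of 0.12, beside 10.2% and 11.0% of all genes described. With total counts these were 12, 6 and 0.61, beside 2113 and 617 of 10539 genes. The ligands Bmp3, Bmp8a and Bmp7 had log2 ratios of -3.45, -3.44 and -2.50. Ltbp4, which binds latent TGF-beta, and the antagonist Fst, or follistatin, had 4.73 and 3.95.

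Of 9 ectonucleotidases and adenosine receptors described, 2 were more than 2-fold higher in cluster 1, 4 in cluster 6 and 3 within 2-fold, Entpd1 among the last. Entpd2, another ectonucleoside triphosphate diphosphohydrolase, was 73.0 RPKM in cluster 1 and 1.97 in cluster 6, 37.0-fold apart (30.7 to 45.1). Entpd3, of the same family, was 0.404 and 47.0 RPKM, 116-fold in the opposite direction (86.5 to 160). Nt5e, which encodes CD73 and releases adenosine from AMP, was 7.36 RPKM in cluster 1 and 78.7 in cluster 6. Entpd2 was highest in cluster 4, at 108 RPKM, and Entpd3 was highest in cluster 6.

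All 26 cell cycle genes were described, 7 were more than 2-fold higher in cluster 6, beside 11.0% of all genes described, and none in cluster 1, and the median log2 ratio was -0.83. The largest were Rrm2, at 13.5 RPKM in cluster 1 and 42.8 in cluster 6, and Mcm4, at 5.26 and 15.8. Rrm2 stood at 41.3 RPKM in the input marrow, and the part of blood cells in this difference was not tested. Mki67, the proliferation antigen, was equal at 6.77 and 6.79 RPKM. With total counts 1 of the 26 was past 2-fold, beside 617 of 10539 among all genes described, so that the count did not stand above the background under that scaling. Hypoxia and glycolysis genes gave 11 of 21 more than 2-fold higher in cluster 6 and 1 in cluster 1. Total counts gave 5 and 2. Pfkl and Bnip3 had log2 ratios of -1.75 and -1.85.

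The other 5 sorted libraries did not all lie between cluster 1 and cluster 6. Of the 301 genes more than 4-fold higher in cluster 1, cluster 6 was the lowest of the 7 libraries for 281 and cluster 1 the highest for 112. Both held for 106 of them, or 35.2%. Of the 317 genes more than 4-fold higher in cluster 6, cluster 6 was the highest for 233 and cluster 1 the lowest for 174, with both true of 142, or 44.8%. The low or high end of a gene was therefore set by cluster 6 more often than by cluster 1. Positions were taken on the log2 scale, with the lower of cluster 1 and cluster 6 as 0 and the higher as 1. Over these 317 genes, cluster 2 had a median position of 0.651, whereas cluster 7 stood at 0.135. Clusters 3, 4 and 5 stood at 0.295, 0.335 and 0.211. Over the 301 genes, median positions were 0.363, 0.765, 0.890, 0.585 and 0.820 for clusters 2, 3, 4, 5 and 7.

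**Figure D3:**
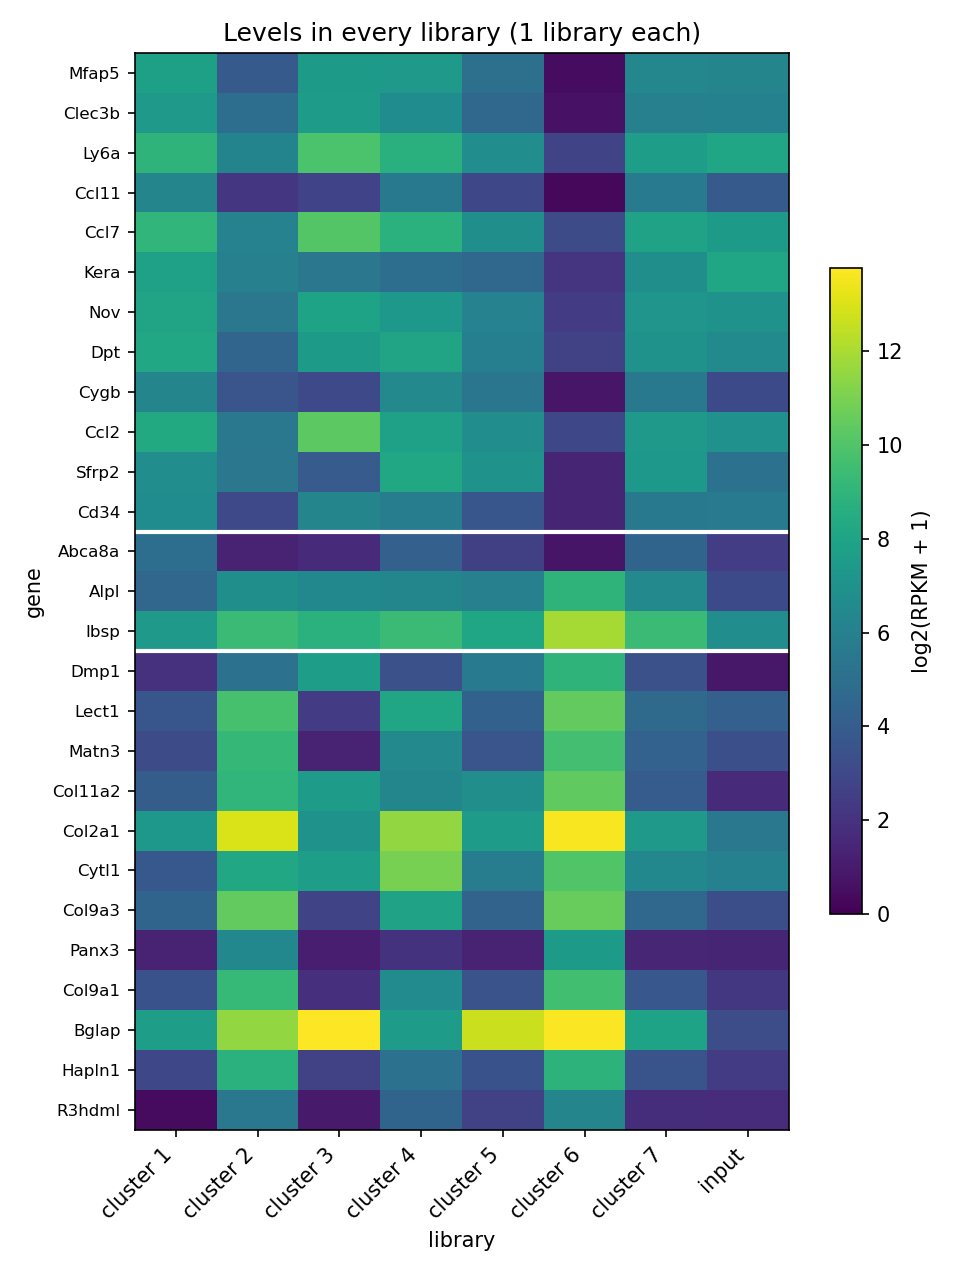
Level, as log2(RPKM + 1) by colour, of the 12 genes with the largest ratio in each direction and of Abca8a, Alpl and Ibsp between them, in the 7 sorted libraries and the input marrow, 1 library each. Cluster 6 is darkest in the upper block and bright in the lower, cluster 2 is bright for cartilage genes, and clusters 3 and 5 are bright for Bglap.

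Transcripts of blood and vessel cells were present in both libraries although their surface proteins had been depleted. Of 13 neutrophil and granule genes, all described, 9 were more than 2-fold higher in cluster 6 and none in cluster 1, with a median log2 ratio of -1.78. Elane, the neutrophil elastase, was 78.6 and 445 RPKM in cluster 1 and cluster 6, and the input marrow held 455. The input total was scaled by a TMM factor of 1.71, against 0.835 for cluster 6, so comparisons with the input depend on the scaling. S100a9, the most abundant of the list in both, was 5601 and 6152 RPKM. The summed level of the list was 12092 and 19426 RPKM, against 26590 in the input marrow. The whole list took 1.08% of counts in cluster 1 and 1.60% in cluster 6. Its part in the genes higher in cluster 6 was not tested.

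Macrophage genes had 4 of 9 described more than 2-fold higher in cluster 6 and 1, Vcam1, in cluster 1, with a summed level of 740 RPKM in cluster 1 and 1830 in cluster 6, most of it Lyz2. With total counts none passed 2-fold toward cluster 6, and the median log2 ratio was -0.16 in place of -0.95. B lineage genes summed to 78.2 and 129 RPKM, 1 of 7 being past 2-fold, toward cluster 6, a share near the 11.0% of all genes described, and none with total counts. T and NK cell genes summed to 27.0 and 45.6 RPKM, of which Nkg7 held 23.2 and 41.0, and the defining markers Cd3d, Cd3e and Cd3g were below the filter. Cd3d had 34 counts in cluster 1 and 10 in cluster 6, Cd3e 12 and 22, and Cd3g 10 and 17.

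The 9 erythroid genes found summed to 6864 RPKM in cluster 1 and 1029 in cluster 6, almost all from Hba-a1 and Hba-a2, near copies whose reads could be split. Alas2, the erythroid enzyme of haem synthesis, was 37.2 and 13.2 RPKM and differed less. Of 7 erythroid genes described, 3 were more than 2-fold higher in cluster 1 and 1 in cluster 6, Tfrc, the transferrin receptor, at 4.46 and 15.3 RPKM. The share toward cluster 6 was near the 11.0% of all genes described. Megakaryocyte genes summed to 52.9 and 7.63 RPKM, beside 11.0 in the input marrow, with Pf4 at 38.5 and 2.73 in cluster 1 and cluster 6. The 17 endothelial genes summed to 79.2 and 15.2 RPKM, and to 38.0 in the input marrow. Ramp2 was the most abundant in cluster 1, at 39.5 RPKM. Of 7 endothelial genes described, 4 were more than 2-fold higher in cluster 1 and none in cluster 6, among them Tek at 4.43 and 0.393 RPKM and Esam at 4.83 and 0.804. The defining endothelial markers Cdh5, Kdr and Emcn were below the filter in both libraries, at 0.722, 1.24 and 0.854 RPKM in cluster 1. Osteoclast genes summed to 312 and 207 RPKM, mostly Ctsk, and to 170 in the input marrow. Mmp9 was 9.82 RPKM in cluster 1 and 57.3 in cluster 6. The part of these cells in the genes higher in cluster 1 was not tested.

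**Figure D4:**
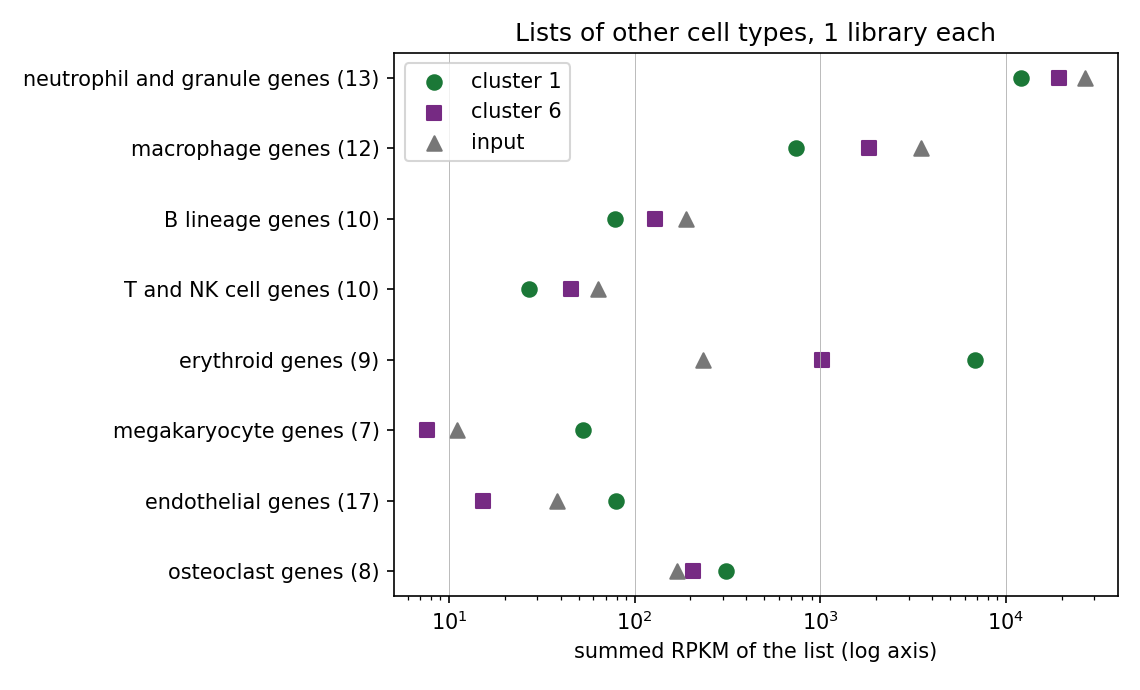
Summed RPKM of 8 lists of other cell types, on a log axis, in cluster 1, cluster 6 and the input marrow, with the number of genes in parentheses and 1 library each. Neutrophil, macrophage, B and T cell lists are higher in cluster 6 than in cluster 1, and erythroid, megakaryocyte, endothelial and osteoclast lists are higher in cluster 1.

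The 3 loci that collect ribosomal RNA reads or lie in repeats, Lars2, mmu-mir-689-2 and Rn18s-rs5, took 1.91% of counts in cluster 1 and 1.41% in cluster 6, and mitochondrially encoded genes took 1.15% and 0.356%. These shares were small in both libraries beside the 34.8% that the same 3 loci took in cluster 5. Haemoglobin genes took 1.10% of counts in cluster 1 and 0.120% in cluster 6.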

How the data were processed

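RNA-seq of 8 libraries was used, each with 1 deposited file of raw read counts per Ensembl gene with the gene's length. Per the study's methods and the labels, the authors trimmed reads, aligned them with TopHat2 in Partek Flow 2.2 and counted reads on genes; the counts are whole numbers and were not normalized. The labels name the mm9 build, whereas the gene coordinates in the files are those of GRCm38: of 23274 symbols, 96.2% started within 10 kb of the RefSeq GRCm38.p6 gene. Labels and methods differ on the source of the RNA (crushed marrow or sorted cells), its amount and the library preparation. Strand use in counting is not given in the sources used here, so overlapping genes on opposite strands cannot be told apart.

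Symbols came from the supplied name table for 32464 genes and from RefSeq positions for 2095. Library totals were scaled by TMM over the 7 sorted libraries (edgeR 4.0.16), RPKM was computed from counts and gene length in Python 3.11.15, and the log2 ratio of RPKM + 1 was taken for genes above 2 RPKM with 50 counts in at least 1 of the 2 libraries. No test was run, since each population had 1 library. On the scaled totals, 3 counts on a gene of 1 kb correspond to 0.103 RPKM in cluster 1 and 0.113 in cluster 6. Intervals are exact binomial (95%). DESeq2 1.42.0 gave alternative size factors only. The scaling and ratio steps were tested on simulated data, in which equal numbers of genes were changed by the same folds in each direction. That setting lacks an uneven shift such as the larger share of collagen counts in cluster 6, so it cannot tell which scaling suits these libraries.

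The named genes were the 12 with the largest ratio in each direction, leaving out genes without a symbol, predicted genes, clones, immunoglobulin and T cell receptor segments, haemoglobin, mitochondrial genes and ribosomal RNA loci, and in each list the defining members and those with the largest ratios. A few further genes were named after their values were seen. The comparison, the members and the gene lists were chosen with earlier results of these data known, so they are not independent evidence. Of 532 list symbols, 4 were not found; older symbols were matched through RefSeq synonyms. The 9112 promoter windows of the genes described covered 7110 genes.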

Additional observations from a re-analysis of the deposited data

How the results depend on the processing

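No paired analysis was possible because there were no replicates to pair, and none could be left out. Counts of genes past 2-fold and 4-fold stayed within 1.5 times the reported values under TMM of these 2 libraries, TMM of all 8, DESeq2 size factors, stricter filters, no filter, removal of mitochondrial, haemoglobin and ribosomal RNA loci before scaling, and thinning to equal totals. A counting interval wholly beyond the fold, chosen after seeing the data, used the ratio of RPKM without the pseudocount. It gave 1087 genes past 2-fold toward cluster 1 and 1200 toward cluster 6, and 444 and 452 past 4-fold. These numbers lie above the reported ones because the measure differs, so they do not show the effect of counting error on the counts. With total counts, 2113 genes were more than 2-fold higher in cluster 1 and 617 in cluster 6, and 478 were more than 4-fold higher in cluster 1. With a pseudocount of 0.1, 528 genes were more than 4-fold higher in cluster 1 and 508 in cluster 6, since a smaller pseudocount enlarges ratios of low genes. With total counts, Ly6a, Abca8a, Alpl and Ibsp had log2 ratios of 6.63, 4.57, -3.88 and -4.01. The shortest genes near the filter rest on as few as 50 counts in the higher library.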

Other observations

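Collagen genes and the families below were chosen after their values were seen. Of 32 collagen genes described, 11 were more than 2-fold higher in cluster 1 and 14 in cluster 6. Outside the bone matrix and cartilage lists, these were 11 and 3 of 21. Of 9 laminin chains and nidogens described, 5 were more than 2-fold higher in cluster 1 and 2 in cluster 6. Among basement membrane genes, Col4a1 was 123 RPKM in cluster 1 and 4.92 in cluster 6, Col18a1 44.8 and 1.19, Lamb1 19.5 and 0.625, and Nid1 93.6 and 4.83. Nid2, a second nidogen, was 14.7 and 114 RPKM, the other way. Col3a1, of fibrillar collagen III, was 2753 and 361 RPKM, opposite to the collagen I genes, whereas the collagen VI genes Col6a1, Col6a2 and Col6a3 lay within 2-fold.

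Transcription factors outside the osteogenic list included Meox1, at 17.8 RPKM in cluster 1 and 0.255 in cluster 6, Meox2, at 26.2 and 1.06, and Ebf2, at 12.1 and 0.0437. Foxa3 was 0.508 and 36.1 RPKM, and Foxa2 0.145 and 3.81. Of 6 FGF ligands described, 4 were more than 2-fold higher in cluster 1 and none in cluster 6, Fgf7 being 7.26 and 0.163 RPKM, whereas the receptor Fgfr3, known from cartilage growth, was 1.70 and 54.7. Complement genes gave 8 of 17 more than 2-fold higher in cluster 1 and 4 in cluster 6, with C1s at 85.0 and 1.99 RPKM and Serping1, its inhibitor, at 260 and 8.52. Interferon-stimulated genes gave 7 of 18 more than 2-fold higher in cluster 1 and 1 in cluster 6 (10 and 0 by total counts), Ifitm3 being 652 and 124 RPKM.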
